A study of Mus musculus with 10 samples.

Results

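In mouse duodenal organoids, 363 H3K27me3 regions near gene starts were called in the stem cell medium WENRC and not in the enterocyte differentiation medium ENRI. They are regions of the deposited broad WENRC list that were shorter than 10000 bp, lay within 5 kb of the transcription start of any transcript in the deposited GRO-seq table, and did not overlap any region of the broad or the narrow ENRI list by 1 bp. They make up 363 of the 5009 broad WENRC regions, and the ENRI broad list holds 6094 regions. The regions were therefore selected on the presence of an H3K27me3 call in WENRC and its absence in ENRI, so the marking itself is described below without a test. The GRO-seq values of the nearby genes did not enter the rule, although the rule was chosen with earlier results of these data known. H3K27me3 is the trimethylation of lysine 27 on histone H3, written by Polycomb repressive complex 2 (PRC2) and typically found over CpG-rich promoters of genes that are silent or weakly transcribed. In the intestine, PRC2 acts in crypt cells, where it holds developmental regulators and genes of other lineages or later stages of the lineage silent. Loss of the mark at a promoter is compatible with transcription and does not by itself start it.

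The organoids were grown in Matrigel from duodenum of mice. In ENRI, Wnt3A and the Wnt pathway agonist CHIR-99021 were left out and IWP-2, an inhibitor of Wnt secretion, was added. WENRC contained Wnt3A and CHIR-99021 together with Noggin, R-spondin and EGF, and ENRI kept the last 3. The labels give the cell type as enterocyte for the ENRI samples and intestinal stem cell for the WENRC samples, and give no age, sex or strain. These names stand for whole organoids in a medium and not for sorted cells, and in such bulk samples fewer cells of a type and less RNA per cell cannot be told apart. H3K27me3 was mapped in 1 ChIP-seq library per medium, with 29.8M tags in ENRI and 31.4M in WENRC per the file headers, so no region has a replicate. GRO-seq (global run-on sequencing), a readout of transcription in progress because only polymerases already on the gene extend RNA in isolated nuclei, had 2 libraries per medium. Reads over 1 transcript per gene were 18368189 and 10245627 in ENRI batches 1 and 2, against 16302293 and 5868922 in WENRC batches 1 and 2. The medium labels were checked on marker genes. The enterocyte markers Apoa1, Apoa4, Alpi and Fabp1 had 19.6 to 286 RPKM (reads per kilobase of transcript, scaled to library size) in the ENRI libraries and 1.62 to 11.9 RPKM in the WENRC libraries. The Wnt-dependent stem cell markers Lgr5, Axin2, Ascl2 and Olfm4 had 0.0476 to 0.959 RPKM in ENRI and 1.44 to 11.9 RPKM in WENRC.

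The sequences around 6 gene starts that lay inside a region are shown, to let the base composition under the mark be seen. They were picked, with their values known, from 9 described genes with a single start inside a region and a single RefSeq promoter. Each is the RefSeq promoter on build GRCm38.p6, 250 bases before to 50 after the start, 5′ to 3′ on the gene's strand, with every CG dinucleotide in capitals. Slc6a20a, Scin, Slc15a1 and Srms were higher in ENRI in the authors' deposited table of GRO-seq changes (FDR under 0.05), while Dmxl2 and Syn1 were not called there.
Slc6a20a: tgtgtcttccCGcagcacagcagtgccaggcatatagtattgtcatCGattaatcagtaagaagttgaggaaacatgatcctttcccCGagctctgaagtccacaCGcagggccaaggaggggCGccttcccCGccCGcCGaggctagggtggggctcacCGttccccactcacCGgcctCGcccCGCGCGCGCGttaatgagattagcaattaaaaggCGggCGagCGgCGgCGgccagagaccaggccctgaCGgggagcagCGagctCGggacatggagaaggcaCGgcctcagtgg
Scin: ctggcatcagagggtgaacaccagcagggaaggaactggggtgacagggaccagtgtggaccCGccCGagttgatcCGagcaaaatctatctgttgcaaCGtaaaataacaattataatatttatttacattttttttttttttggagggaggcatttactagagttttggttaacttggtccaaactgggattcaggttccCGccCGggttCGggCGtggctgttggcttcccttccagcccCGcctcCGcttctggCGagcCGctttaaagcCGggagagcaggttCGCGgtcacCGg
Slc15a1: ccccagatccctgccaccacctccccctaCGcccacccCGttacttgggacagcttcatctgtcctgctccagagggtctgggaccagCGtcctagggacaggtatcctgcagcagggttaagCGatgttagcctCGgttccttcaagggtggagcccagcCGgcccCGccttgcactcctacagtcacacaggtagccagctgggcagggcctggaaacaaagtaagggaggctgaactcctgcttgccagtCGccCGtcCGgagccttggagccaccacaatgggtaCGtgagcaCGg
Srms: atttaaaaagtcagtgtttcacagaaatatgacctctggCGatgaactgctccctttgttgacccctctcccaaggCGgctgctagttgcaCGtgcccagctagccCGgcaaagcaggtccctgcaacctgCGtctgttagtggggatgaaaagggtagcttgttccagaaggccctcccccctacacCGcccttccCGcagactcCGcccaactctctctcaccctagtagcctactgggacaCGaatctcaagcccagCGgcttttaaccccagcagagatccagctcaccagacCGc
Dmxl2: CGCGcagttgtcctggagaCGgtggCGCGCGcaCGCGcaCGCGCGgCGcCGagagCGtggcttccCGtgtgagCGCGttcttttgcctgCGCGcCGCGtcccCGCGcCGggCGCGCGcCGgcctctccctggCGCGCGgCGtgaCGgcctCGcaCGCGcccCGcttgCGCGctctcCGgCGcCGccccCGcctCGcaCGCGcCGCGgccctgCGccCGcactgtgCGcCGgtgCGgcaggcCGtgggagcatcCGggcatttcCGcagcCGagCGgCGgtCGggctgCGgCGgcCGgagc
Syn1: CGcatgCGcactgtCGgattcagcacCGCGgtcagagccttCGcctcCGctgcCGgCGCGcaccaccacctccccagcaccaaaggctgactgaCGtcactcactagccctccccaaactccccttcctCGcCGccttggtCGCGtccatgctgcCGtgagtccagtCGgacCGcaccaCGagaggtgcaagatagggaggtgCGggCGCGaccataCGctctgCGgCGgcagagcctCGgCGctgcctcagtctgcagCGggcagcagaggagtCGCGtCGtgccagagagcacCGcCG
Dmxl2, which encodes a regulator of the vacuolar proton pump, has 63 CG dinucleotides in this window, a number reached by 0.0304% of the 32851 promoters in the RefSeq table. Syn1, the synaptic vesicle protein synapsin, has 33. Among the genes with more transcription in ENRI, the windows hold 25 for Slc6a20a, 16 for Scin, 12 for Slc15a1 and 11 for Srms. The 3 genes not shown, none of them called in the authors' deposited table, hold 31 (Rspo4), 14 (Chrnb4) and 5 (Scn1a), against a median of 7 over all promoters in the table, of which 94.6% hold at least 1. A comparison of CG content over the whole set is void, because a RefSeq promoter was matched for 304 of the 404 genes near the regions, which is 75.2% and below the 80% required.

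Of the 363 regions, 184 (50.7%) were exactly 1000 bp long, the width of a single calling window, and the longest, at Slc6a20a, reached 8359 bp. The deposited score, equal to the tags in its best window, had a median of 39 (lowest 34, highest 88), where 34 is the authors' threshold, and 118 of the regions (32.5%) scored 34 to 36. Over all 5009 WENRC broad regions the median score was also 39, 1503 scored 34 to 36 and 35.9% were 1000 bp long. The deposited fold of ChIP over input tags had a median of 4.79, from the required 4 up to 17. The 445 short regions near starts that the same rule gives for ENRI alone were set beside them, with 58.7% at 1000 bp, and had a median score of 35 over a threshold of 32. Among short WENRC regions near starts that did overlap an ENRI region, 1644 in all, 13.1% were 1000 bp long, the median length was 3076 bp and the median score 43. These differences are part of what the rule selects and carry no test.

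**Figure D1:**
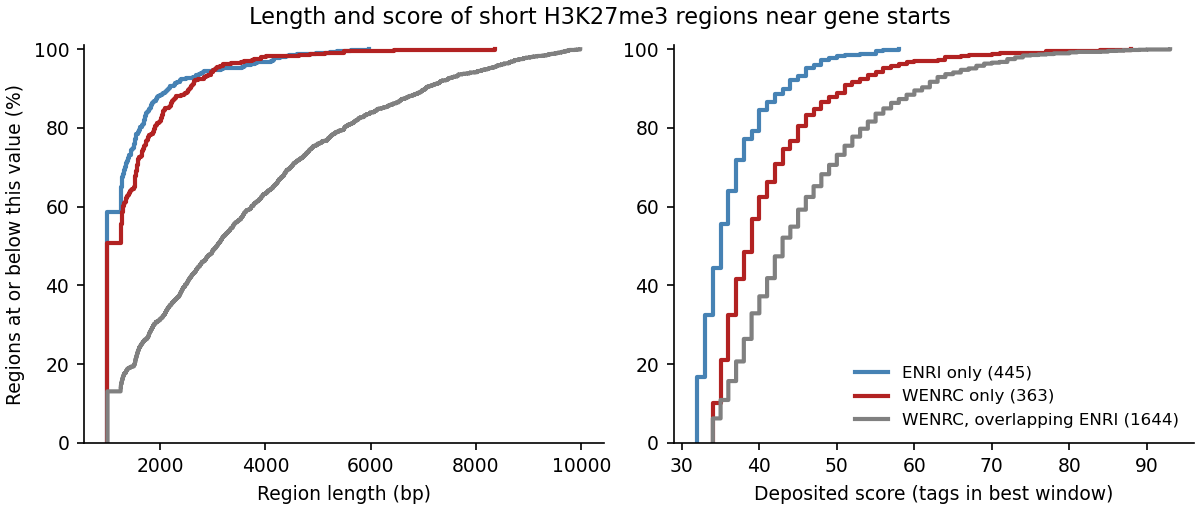
Cumulative share of regions (percent) by length in bp (left) and by deposited score in tags (right), for short H3K27me3 regions within 5 kb of a gene start called in ENRI only (445), in WENRC only (363) and in WENRC with an overlapping ENRI region (1644). Of the WENRC-only regions 50.7% are 1000 bp long, and of the ENRI-only regions 58.7%, and the regions called in both media reach higher lengths and scores.

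The regions sat around the start more often than on it. A start lay inside 121 of the 363 regions (33.3%), compared with 1171 of the 1644 overlapping regions (71.2%), and 297 had a start within 2 kb. The median distance from region to start was 346 bp. Region centres lay downstream of the nearest start for 212 and upstream for 151. All 20 chromosomes that carried a region held between 6 and 32 of them. The absence of an ENRI call at the region itself did not mean that the neighbourhood was free of ENRI calls. The gap to the nearest ENRI region had a median of 3822 bp, 95 regions (26.2%) had an ENRI region within 1 kb, and 193 (53.2%) within 5 kb. Mostly these neighbours came from the narrow ENRI list, since a broad ENRI region lay within 5 kb of 41 regions. The other 170 regions had no ENRI region of either list within 5 kb, and 67 of these 170 (39.4%) held a start, against 54 of the 193 with a neighbour (28.0%).

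**Figure D2:**
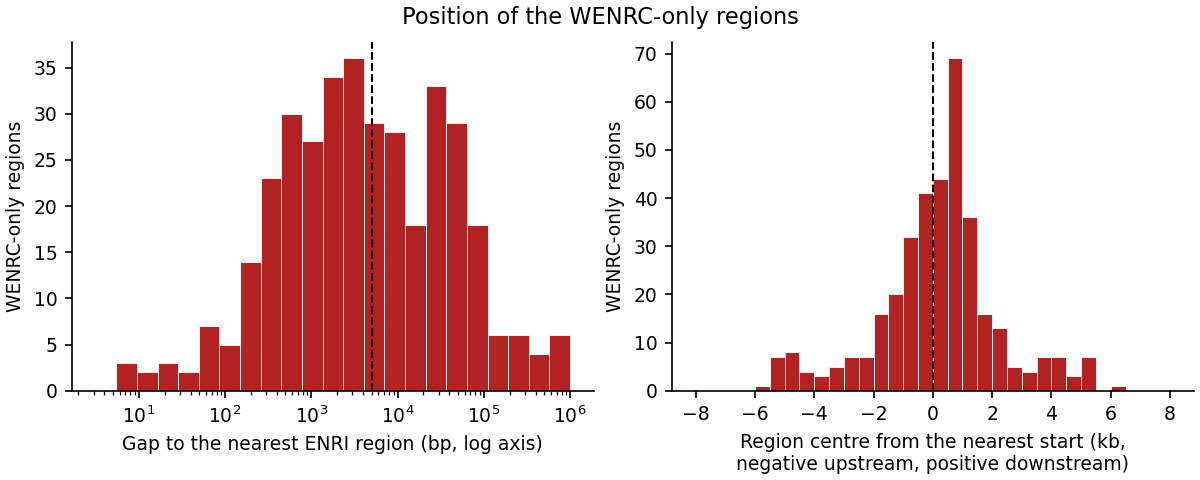
Left, number of WENRC-only regions by gap in bp to the nearest ENRI region of either list (log axis, dashed line at 5 kb, 193 regions to its left). Right, number of regions by position of their centre relative to the nearest gene start in kb, negative upstream, with the highest bar just downstream of the start.

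At the limits of the rule, the longest regions inside were those at Slc6a20a (8359 bp) and Ntn4 (6447 bp), and 1 WENRC region free of ENRI overlap was too long, at 11572 bp. The regions farthest from a start inside the limit lay 4998 bp from Zfp961 and 4952 bp from Ly9, and the nearest ones outside lay 5067 bp from Krt24 and 5088 bp from Kcnk16. The smallest gaps to an ENRI region among the 363 were 6 bp at Pid1 and 8 bp at Dmxl2, while the smallest overlap among the 1644 overlapping regions was 6 bp. For 25 of those 1644 the overlap was under 200 bp.

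The highest scores belonged to regions at genes of diverse function. The region at Podxl, which encodes the sialomucin podocalyxin, scored 88 (mm9, chr6:31514329-31516346, 2017 bp, 4.08-fold over input) and lay 392 bp from the start. Next came the region over the start of Ldlrad4, a negative regulator of TGF-beta signalling, with a score of 84 and 5.39-fold over input. The region at Spsb1, an adaptor of a ubiquitin ligase, scored 77 (chr4:149329498-149331276, 6.61-fold), and that over the start of Zyg11a, a substrate receptor of another ubiquitin ligase, scored 71 (chr4:107889369-107891934, 4.26-fold). These 4 differed in the distance to ENRI calls. A narrow ENRI region lay 405 bp from the Podxl region, while the nearest ENRI region was 68162 bp away at Spsb1 and 129351 bp away at Zyg11a. Regions at Dmxl2 (70), Macrod2 (67), Gnai1 (66) and, with 64 each, Srms, Bmp3 and Acot3 completed the highest 10, which are 10 because the last 3 were tied.

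Of the 10 genes at these highest-scoring regions, 5 had a mean level under the all-gene median of their medium in ENRI and 9 in WENRC. That median was 0.296 RPKM in ENRI and 0.397 RPKM in WENRC over the 24016 genes of the table. Podxl had 0.415 and 0.499 RPKM in ENRI batches 1 and 2, against 0.697 and 0.752 RPKM in WENRC batches 1 and 2. Spsb1 had 0.796 and 1.32 RPKM in ENRI and 0.403 and 0.322 RPKM in WENRC, and Zyg11a 0.283 and 0.642 RPKM in ENRI and 0.0677 and 0.102 RPKM in WENRC. Both Spsb1 and Zyg11a were thus higher in each ENRI library than in either WENRC library, and Podxl was lower. In the authors' deposited table Zyg11a had a log2 change of 2.59 (FDR 7.02e-06) and Spsb1 of 1.75 (FDR 0.00201), while Podxl had -0.43 (FDR 0.616). Srms, a Src-related tyrosine kinase gene, had 31 reads in the ENRI libraries together and 1 in the WENRC libraries, a ratio at equal depth of 24.2 with an exact 95% binomial interval for counting error of 4.04 to 987. Acot3, a peroxisomal acyl-CoA thioesterase, had 108 reads in ENRI and 11 in WENRC. Bmp3, a ligand of the BMP family that opposes other BMPs, had 0.656 and 1.90 RPKM in ENRI, against 0.152 and 0.228 RPKM in WENRC. Ldlrad4, Dmxl2, Macrod2 and Gnai1 had at most 0.181 RPKM in any library.

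In all, 404 genes had a start within 5 kb of a region, 1 gene for 322 regions and 2 genes for 41. Of these genes 361 were annotated as protein coding and 40 as non-coding in the authors' deposited GRO-seq table. Their GRO-seq levels were low in both media, with a median of 0.0640 RPKM in ENRI and 0.0659 RPKM in WENRC, below the all-gene medians given above. At least 1 RPKM was reached by 66 of the 404 genes in ENRI (16.3%) and by 49 in WENRC (12.1%), beside 30.3% and 34.6% of all genes. No read in any library was found for 13 of the 404, beside 2228 of the 24016 genes in the whole table. Among the 124 genes whose start lay inside a region, 16 reached 1 RPKM in ENRI (12.9%) and 6 in WENRC (4.84%). A region called next to a gene thus did not always mean a silent gene in WENRC. Most of the genes at 1 RPKM or more in WENRC had their start outside the region, as did most of the 404 genes.

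In the authors' deposited table, which compares the media with edgeR's likelihood ratio test and batch as a term, 54 of the 404 genes were higher in ENRI at an FDR under 0.05 (13.4%) and 16 were lower (3.96%). Over all 24016 genes the same table calls 5.65% higher and 3.06% lower. The higher genes outnumbered the lower ones near these regions and in the whole table. Near the 445 ENRI-only regions the balance was the other way, with 12 of 481 genes higher (2.49%) and 44 lower (9.15%). Near the regions called in both media, 82 of 1822 genes were higher (4.50%) and 51 lower (2.80%). These classes were not tested against each other, and 31 of the 404 genes also lie near an ENRI-only region and 6 near an overlapping one.

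The share of higher genes is given next by where the region sat, without a test between the subsets. With the start inside the region, 27 of 124 genes were higher in ENRI in the authors' deposited table (21.8%) and 1 was lower. With the start 2 to 5 kb away, 6 of 88 were higher (6.82%) and 4 lower. Where no ENRI region lay within 5 kb of the region, 35 of 188 genes were higher (18.6%) and 5 lower, and where one did, 19 of 216 were higher (8.80%) and 11 lower in the authors' deposited table. Regions longer than 1000 bp had 34 of 198 genes higher (17.2%) and 3 lower there, and those of 1000 bp 20 of 206 higher (9.71%) and 13 lower. A count that needs no model was also made. Both ENRI libraries exceeded both WENRC libraries for 82 of the 404 genes (20.3%), beside 15.1% of all genes, and both lay below for 93 (23.0%), beside 33.4% of all genes. For the 124 genes with the start inside, the counts were 37 above (29.8%) and 19 below (15.3%).

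**Figure D3:**
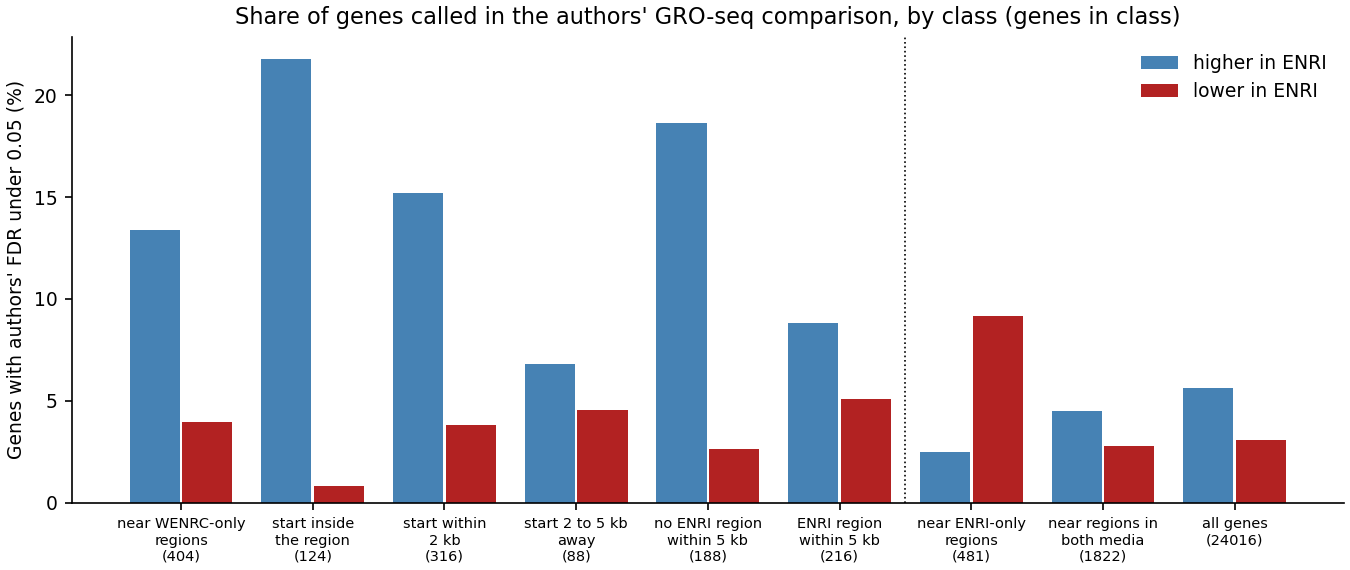
Percent of genes with an FDR under 0.05 in the authors' deposited GRO-seq table, higher (left bar) or lower (right bar) in ENRI, for the 404 genes near WENRC-only regions, for subsets of them, and right of the dotted line for genes near ENRI-only regions (481), genes near regions called in both media (1822) and all genes (24016). The highest bar is for genes with the start inside the region, at 21.8%.

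With limma on log2 RPKM (pseudocount 0.5, after a filter of 0.5 RPKM reached in 2 or more libraries), 108 of the 404 genes could be tested and 1 passed a Benjamini-Hochberg adjusted p of 0.05, while 0.147% of the 11602 genes tested passed. That gene was Mir3081, a microRNA gene lying within Boc. It had 0 reads in both ENRI libraries and 3 and 1 reads in WENRC batches 1 and 2, with an adjusted p of 0.0484 in limma, and it did not pass with the replicate block, where limma called 0 genes (53 of the 108 at an unadjusted p under 0.05, beside 33.1% of all tested genes). A further 20 genes had an adjusted p from 0.05 to 0.06, 17 of them higher in ENRI, beside 10.6% of all tested genes in that range and 3.75% in it and higher. The count turned on single libraries. Limma called 71 of the 108 without ENRI batch 1, where it called 49.9% of all tested genes, and 20 without ENRI batch 2, where it called 5.90%. Without either WENRC library limma called 0 (33 of the 108 at an unadjusted p under 0.05 without batch 1 and 26 without batch 2, beside 14.4% and 11.7% of all tested genes). Over the tested genes, which include those that passed the filter through one medium alone, the median log2 change was 0.02 and 49.1% were lower in ENRI, beside -0.21 and 65.7% over all tested genes. Within batches the median was 0.03 in batch 1 and 0.01 in batch 2. Direct counting tests on the recovered reads called more of the 108, 25 higher and 2 lower with edgeR's quasi-likelihood test (5.60% and 2.84% of all tested genes) and 39 higher and 9 lower with DESeq2 (14.7% and 8.89%). With edgeR's own filter on reads in place of the RPKM filter, edgeR called 0 of 313 genes without the replicate block (77 at an unadjusted p under 0.05, beside 22.6% of all genes it tested) and 17 with it, beside 0.00% and 1.12% of all genes it tested.

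**Figure D4:**
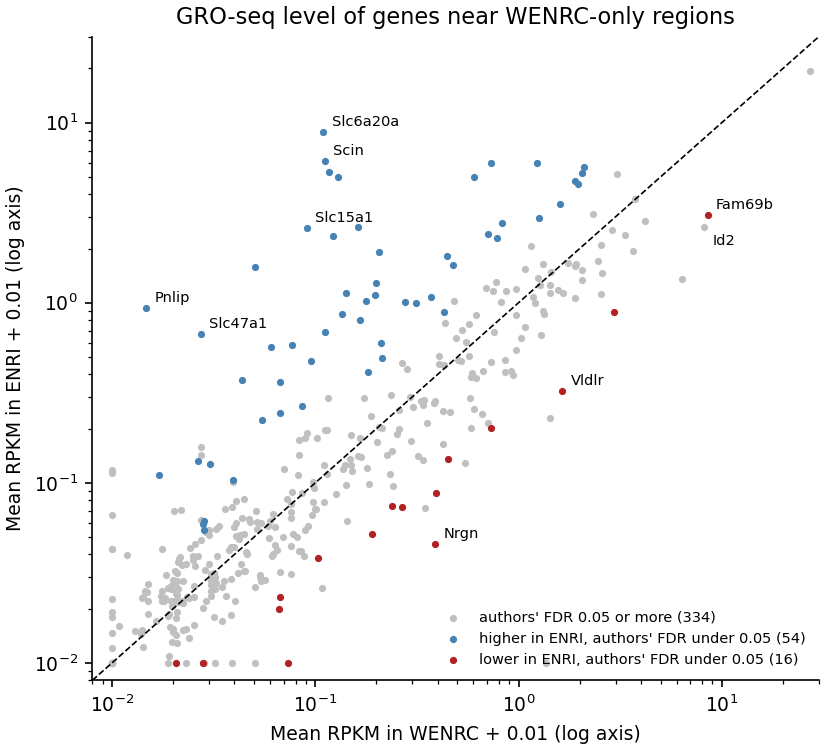
Mean GRO-seq level in ENRI against WENRC (RPKM + 0.01, both axes log) for the 404 genes near WENRC-only regions, coloured by the call in the authors' deposited table, with the dashed line marking equal levels. The 54 higher genes lie above the line, mostly under 1 RPKM in WENRC, and most of the uncalled genes lie under 0.1 RPKM in both media.

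The 8 largest increases in ENRI among the tested genes were those of Slc6a20a, Scin, Ggt1, Mme, Slc15a1, Pxdc1, H2-Bl and Dpep1. They were picked on the values given below, so the gap between their media follows from the choice. Slc6a20a, Scin, Ggt1, Mme, Slc15a1 and Dpep1 were under 0.5 RPKM in both WENRC libraries and passed the filter through ENRI alone. Solute carriers, taken by their Slc symbols after the values were seen, went both ways. Of the 11 near a region, 4 were higher and 1 lower in the authors' deposited table (36.4% and 9.09%), beside 20.1% higher and 4.28% lower of the 374 Slc genes in the whole table. The lower one was Slc1a3, a glutamate transporter gene, with 35 reads in ENRI and 107 in WENRC and a log2 change of -2.05 (FDR 0.0251) in the authors' deposited table. Slc6a20a, a sodium-dependent transporter of proline and other imino acids, had 4.48 and 13.3 RPKM in ENRI, against 0.0858 and 0.114 RPKM in WENRC. Slc15a1, the brush-border peptide transporter PepT1, had 1.90 and 3.28 RPKM in ENRI and 0.0907 and 0.0711 RPKM in WENRC. Both start inside their regions, which run for 8359 bp at Slc6a20a (chr9:123581570-123589929) and 4633 bp at Slc15a1 (chr14:121901012-121905645) and extend mainly into the gene. The Slc6a20a region scored 36, was 4.24-fold over input and had an ENRI region 4720 bp away. At Slc15a1 the region scored 45, was 4.86-fold over input and had an ENRI region 11946 bp away. The log2 changes in limma were 3.79 ± 0.51 (SE) for Slc6a20a and 2.37 ± 0.25 for Slc15a1, each with an adjusted p of 0.056. The ratio of pooled reads, ENRI over WENRC and scaled to library size, was 81.3 for Slc6a20a (95% interval for counting error 68.7 to 96.9) and 27.9 for Slc15a1 (23.5 to 33.3). Slc47a1, an exporter of organic cations singled out after its values were seen, had 915 reads in ENRI and 15 in WENRC and also starts inside its region.

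Genes of 5 peptidases at the cell surface are given together, grouped after their values were seen. Mme, which encodes neprilysin, had 3.46 and 6.53 RPKM in ENRI, against 0.164 and 0.0735 RPKM in WENRC, and its region of 1942 bp over the start was 9.48-fold over input (chr3:63099120-63101062). Ace, the angiotensin-converting enzyme, which also digests peptides at the brush border, had 0.781 and 2.37 RPKM in ENRI and 0.0615 and 0.0196 RPKM in WENRC. Dpep1, a dipeptidase, had 1.41 and 3.83 RPKM in ENRI, against 0.144 and 0.160 RPKM in WENRC, and Ggt1, which splits glutathione outside the cell, had 2.66 and 8.03 RPKM in ENRI, against 0.135 and 0.0773 RPKM in WENRC. All 4 were higher in each ENRI library than in either WENRC library. Dpep2, a further dipeptidase gene, was not, with 10 reads in ENRI and 25 in WENRC and a log2 change of -1.44 (FDR 0.334) in the authors' deposited table. The placement of the mark differed among the 4: the Mme start lay inside its region and that of Ace 171 bp away, whereas the regions at Ggt1 and Dpep1 lay 3464 and 3509 bp downstream of the start and had an ENRI region 64 and 4162 bp away. Limma gave log2 changes of 3.10 ± 0.31 (SE) for Mme (adjusted p 0.056) and 1.83 ± 0.41 for Ace (adjusted p 0.065).

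Scin, which encodes the actin-severing protein scinderin, had 3.86 and 8.32 RPKM in ENRI, against 0.141 and 0.0610 RPKM in WENRC. Its region of 3909 bp spanned the start and ran mainly into the gene (chr12:40857420-40861329, 5.20-fold over input), with the nearest ENRI region 32624 bp away. Pxdc1 had 4.52 and 7.33 RPKM in ENRI and 0.762 and 0.679 RPKM in WENRC. H2-Bl, a class I histocompatibility gene, had 3.15 and 6.83 RPKM in ENRI and 0.705 and 0.480 RPKM in WENRC, which is uncertain because such genes have close copies that can share reads. For all 3, picked for their large increase, the media did not overlap and the adjusted p in limma was 0.056. Among further genes that were higher in ENRI, singled out after their values were seen, several encode lipid enzymes. Not all lipid enzyme genes near a region went this way. In the authors' deposited table the diacylglycerol lipase gene Dagla was lower (log2 change -1.64, FDR 0.00377) and Mogat1 was not called (-0.27, FDR 0.956). Pnlip, the pancreatic triglyceride lipase, had 436 reads in ENRI and 1 in WENRC, a ratio of 341 per library depth (counting interval 60.8 to 13482). Its 1000 bp region over the start scored 34, the threshold, and was 4.25-fold over input. The nearest region of the narrow WENRC list lay 7167 bp from it. Agpat9, a glycerol-3-phosphate acyltransferase, had 1.11 and 2.69 RPKM in ENRI and 0.204 and 0.188 RPKM in WENRC, and Sphk1, which makes sphingosine-1-phosphate, had 4.37 and 7.50 RPKM in ENRI and 1.25 and 1.20 RPKM in WENRC. Acot12, another acyl-CoA thioesterase, had 241 reads in ENRI and 24 in WENRC, and Eci3, an isomerase of fatty acid oxidation, had 411 in ENRI and 38 in WENRC. Acot12 and the clone 4833422C13Rik overlap on opposite strands, and the counting is not stated to use strand, so the levels of each may include reads of the other.

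**Figure D5:**
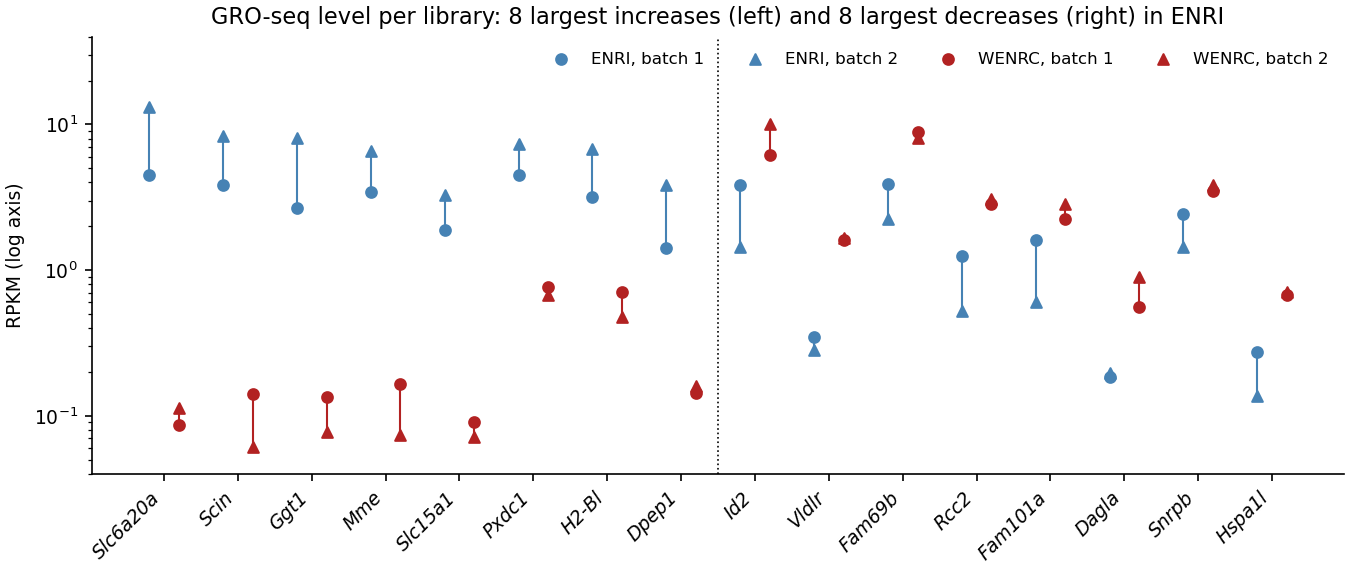
GRO-seq level in RPKM (log axis) of the 8 genes with the largest increase and the 8 with the largest decrease in ENRI among the tested genes near WENRC-only regions. For each gene the ENRI libraries stand left of the WENRC libraries, circles are batch 1 and triangles batch 2, and lines join the libraries of one medium. The 8 genes on the left were picked for their large increase, so their lack of overlap between media is no separate support. Their WENRC levels are at most 0.762 RPKM.

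Among the 54 genes that were higher in the authors' deposited table, log2 changes ran from 1.22 to 8.24 with a median of 2.56. For 52 of the 54 both ENRI libraries exceeded both WENRC libraries, beside 20.3% of the 404 genes and 15.1% of all genes. The FDR that picked the 54 came from these same libraries, so this count is no separate support. No ENRI region lay within 5 kb of any start for 38 of the 54, beside 192 of the 404 genes. In 49 of the 54 the ENRI library of batch 2 had the higher level of the pair. This count was not made over all genes, so it cannot be read as a trait of the 54. The 37 enterocyte genes of the fixed list summed to 805 and 1251 RPKM in ENRI batches 1 and 2. Their sums were 125 and 76.0 RPKM in WENRC batches 1 and 2, and 33 of the 37 were higher in the authors' deposited table. Only 2 of those 37 lay near a region, Slc15a1 and Ace. Whether the changes near the regions differ from those of other enterocyte genes was not tested.

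Of the 8 largest decreases in ENRI, Fam101a starts inside its region and the other genes start 323 to 4870 bp away. Vldlr, a receptor for very low density lipoprotein and reelin, had 0.347 and 0.281 RPKM in ENRI, against 1.60 and 1.66 RPKM in WENRC, with a log2 change of -1.39 ± 0.12 (SE, adjusted p 0.052 in limma). Its 1000 bp region lay 323 bp upstream of the start with an ENRI region 650 bp away. Fam69b had 3.87 and 2.23 RPKM in ENRI and 8.91 and 8.11 RPKM in WENRC. Id2, an inhibitor of basic helix-loop-helix factors and a BMP target, had 3.83 and 1.44 RPKM in ENRI, against 6.16 and 10.1 RPKM in WENRC. Its region scored 36, lay 4870 bp upstream of the start and ended 10 bp from an ENRI region. Rcc2, a mitotic chromosome regulator, had 1.24 and 0.527 RPKM in ENRI and 2.83 and 3.08 RPKM in WENRC, and its region lay 4419 bp from the start. None of these 4, picked for their large decrease, overlapped between media. None passed limma, whose adjusted p was 0.099 for Id2 and 0.062 for Fam69b and Rcc2.

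The other large decreases were Fam101a, the diacylglycerol lipase gene Dagla, the splicing factor gene Snrpb and the heat shock protein gene Hspa1l, with log2 changes in limma from -0.77 to -0.98 and adjusted p from 0.062 to 0.124. Among the 16 genes that were lower in the authors' deposited table, singled out here after their values were seen, several were nearly silent. Nrgn, which encodes neurogranin, had 13 reads in ENRI and 93 in WENRC, a ratio at equal depth of 0.109 (95% interval for counting error 0.0560 to 0.196). The lymphoid kinase genes Blk and Lck, the related kinase gene Fyn and the transcription factor gene Ikzf4 were also among the 16. Blk and Ikzf4 had 0 reads in ENRI, and 10 and 9 reads in WENRC. Lck had 75 reads in ENRI and 206 in WENRC, and Fyn 355 in ENRI and 1154 in WENRC. Cd83 and Dock8, also known from immune cells, went the other way and were higher in the authors' deposited table. Cd83 had 1653 reads in ENRI and 67 in WENRC, and Dock8 6555 in ENRI and 1184 in WENRC. The 11 genes of the immune list, none of them at 0 in all libraries, summed to 9.80 and 11.3 RPKM in ENRI and 17.5 and 20.9 RPKM in WENRC. Their median level went the other way, with 0.0311 RPKM in ENRI and 0.0235 RPKM in WENRC, and the authors' deposited table called 1 of the 11 higher and 1 lower. The part of immune cells in the values of these genes was not tested.

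Of the 8 genes with the highest transcription in WENRC, microRNA and clone-like genes left out, Fam69b, Id2, Rcc2 and Snrpb are described above, and the other 4 had smaller fitted changes. Lingo4 had 3.17 and 4.38 RPKM in ENRI, against 3.30 and 4.18 RPKM in WENRC, with overlapping media and a log2 change of 0.01 ± 0.23 (SE, limma adjusted p 0.988). Its region started 113 bp inside the gene. F3, the gene for tissue factor, had 7.53 and 2.82 RPKM in ENRI and 1.81 and 4.26 RPKM in WENRC, also overlapping. Tada2b, an adaptor of the SAGA coactivator, had 2.25 and 2.47 RPKM in ENRI and 3.44 and 3.24 RPKM in WENRC, and Snx22, a sorting nexin, 2.98 and 2.66 RPKM in ENRI and 4.48 and 3.85 RPKM in WENRC. Both of these overlap another gene on the opposite strand, Grpel1 for Tada2b and Ppib for Snx22, and the counting is not stated to use strand, so their levels may include reads of the neighbour.

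Of the 20 gene lists used for description, 9 had a member near a region, with 404 of 24016 genes (1.68%) near one over the whole table. No gene of PRC2 itself (0 of 11) lay near a region, and of 19 PRC1 genes 1 did. This was Kdm2b, the subunit that brings a PRC1 variant to CpG islands, with 0.278 and 0.196 RPKM in ENRI and 0.441 and 0.462 RPKM in WENRC. None of the 26 stem cell genes, 151 developmental transcription factors or 39 Hox genes lay near one. Short regions called in both media had 3, 9 and 0 of them nearby. The rule leaves out regions of 10000 bp or more, so these counts do not describe all H3K27me3 at such genes. Wnt pathway genes contributed 3 of 51. Fzd1, a Wnt receptor, had 0.596 and 0.593 RPKM in ENRI and 0.416 and 0.667 RPKM in WENRC, while the secreted antagonist Sfrp4 and the R-spondin gene Rspo4 had at most 0.0591 RPKM. The BMP and TGF-beta list supplied 2 of 42, Bmp3 and Id2, described above. Boc, a Hedgehog co-receptor, had 27 reads in ENRI and 122 in WENRC, a ratio at equal depth of 0.173 (0.109 to 0.264), and its log2 change in the authors' deposited table was -2.43 (FDR 0.00634). It was the 1 of 13 Hedgehog genes near a region.

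Ion channel and synapse genes supplied 7 of 63 (11.1%): Scn1a, Grin2a, Grik1, Chrnb4, Nrxn3, Nlgn1 and Syn1, which encode a sodium channel, glutamate and nicotinic receptor subunits, synaptic adhesion proteins and synapsin. A further 33 of the 63 lay near a region called in both media. Syn1 had 0.275 and 0.262 RPKM in ENRI and 0.354 and 0.397 RPKM in WENRC, and it overlaps Araf and Timp1 on the opposite strand. The other 6 had at most 0.0293 RPKM in any library, and none of the 7 was called in the authors' deposited table. Single genes came from the goblet cell list (Spink4), the tuft cell list (Alox5ap) and the endothelial list (Cdh5). Spink4, a secreted protease inhibitor, had 1.45 and 1.73 RPKM in ENRI and 1.83 and 1.95 RPKM in WENRC. The 12 goblet genes together went the other way, with sums of 47.0 and 31.4 RPKM in ENRI and 10.7 and 8.26 RPKM in WENRC. The authors' deposited table called 4 of the 12 higher and 1 lower. Cdh5, the cadherin of endothelial junctions, and Alox5ap, needed for leukotriene synthesis, had at most 0.0423 RPKM.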

How the data were processed

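The authors deposited GRO-seq signal as scaled reads per RefSeq transcript (mm9) counted with HOMER, each column summing to 20.0M per the file headers and values. Whole reads were recovered from the smallest step (100% of low values whole within a tolerance of 0.1). Another 4 deposited columns, of RPKM, were left aside. RPKM was computed for the longest transcript of each of 24016 symbols. The log2 changes and FDR values in the authors' deposited table came from edgeR with batch as a term, per the file headers. With HOMER the authors called H3K27me3 regions separately per library, at a fold of 4 over input, and the score of a broad region is the tag count of its best window, per the file headers. The base of the coordinates and the strand setting are not given in the sources used here.

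Genes reaching 0.5 RPKM in 2 libraries were tested with limma 3.58.1 (R 4.3.3, mean trend, no block), after a check on simulated data. The simulated counts had a fixed spread and no batch effect. That check was of the direction of fitted changes and cannot vouch for the number of calls in the real libraries. Alternatives were pseudocounts, filters, scalings, left-out libraries, edgeR 4.0.16 and DESeq2 1.42.0. Titles number the mice 1 and 2 in both media, and the table pairs its columns by batch, so the numbers were taken to pair the libraries although no column names a mouse. Deviations of paired libraries correlated at 0.0126. Intervals on reads cover counting error only. Named genes were those of the 8 highest scores with ties, every limma call, the 8 largest changes in each direction, the 8 highest in WENRC, every list member and those at the limits, leaving out clone-like and microRNA names except as calls. Members, lists and rules were chosen with earlier results of these data known.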

Additional observations from a re-analysis of the deposited data

How the results depend on the processing

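The number of regions was 363. With absence from ENRI judged otherwise it became 992 against the broad ENRI list alone and 170 where no ENRI region could lie within 5 kb, and with other limits on position and score 121 with the start inside the region and 187 at scores of at least the list median, while the narrow ENRI list alone, a start within 2 kb and overlap with the narrow WENRC list gave 403, 297 and 338.

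The limma call of 1 gene became 0 with a pseudocount of 0.1 (57 at an unadjusted p under 0.05, beside 37.6% of all genes tested), no filter (82, beside 21.7%), median centring (53, beside 35.3%) and the replicate block (53, beside 33.1%), and 0 for starts within 2 kb, starts inside, or no ENRI region within 5 kb, each of which leaves out Mir3081. It became 18 with quantile normalization, 27 with edgeR, 28 with edgeR and the replicate block and 48 with DESeq2, which called 8.01%, 8.44%, 8.03% and 23.6% of all genes tested, and 70 of the 404 by the authors' FDR (8.71% of all genes). Chosen after seeing the data, edgeR with its own filter on reads gave 0 (77) and, with the block, 17. Leaving out 1 library gave 0 to 71 calls: 71 without ENRI batch 1 (49.9% of all genes tested), 20 without ENRI batch 2 (5.90%) and 0 without either WENRC library (33 and 26 at an unadjusted p under 0.05), where the single library left in a medium is taken to have the spread of the other medium.

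The median log2 change of 0.02 became 7.7e-05 with no filter, 0.16 with median centring, 0.23 with quantile normalization, -0.0103 with the transcript of the nearest start, 0.22 for starts within 2 kb (78 genes tested), 1.18 for starts inside (24 tested of 124) and 0.25 with no ENRI region within 5 kb (67 tested), and ran from -0.0232 to 0.0977 with 1 library left out. The share lower in ENRI, 49.1%, became 46.8%, 41.7%, 40.7%, 50%, 42.3%, 29.2% and 37.3% in the same order, and 46.3% to 50% with 1 library left out. The filter lets a gene in through the medium where it is high, so these values describe the genes that passed and not all genes near the regions. Over all tested genes, the scalings moved the median change of -0.21 to -0.06 with median centring and -0.04 with quantile normalization. The replicate block cannot change the median or the share lower in ENRI, because each batch holds 1 library of each medium.

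Among 27 named genes, 6 of 430 pairs of a gene and an alternative changed sign. The 430 include the limma fits with the replicate block, where the sign could not change. Lingo4 reached -0.0190 with quantile normalization and -0.20 to 0.21 with 1 library left out, F3 -0.0020 to 1.27, Fzd1 -0.0926 to 0.258, and Spink4 0.0319 with DESeq2. The cause of these shifts was not tested. With 1 ChIP library per medium, and 118 regions scoring 34 to 36 at a threshold of 34, presence in WENRC alone has no replicate check.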
